A study of Drosophila melanogaster with 3 samples.

Results

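The nuclear oxidative phosphorylation genes of Drosophila melanogaster were examined for binding of the transcription factor Pointed. They were chosen by symbol, as the protein-coding nuclear genes beginning with ND-, Sdh, UQCR, COX and a digit, or ATPsyn, and this gave 88 of the 13945 protein-coding genes annotated on arms X, 2L, 2R, 3L, 3R and 4. Binding was measured by chromatin immunoprecipitation and sequencing (ChIP-seq) with an antibody to GFP in whole embryos aged 0 to 24 hours, males and females together. The embryos came from the fly strain pnt-MiMIC-GFP, where a pnt intron carries an inserted eGFP exon, so that products spliced to include that exon are tagged. The antibody field of the labels reads pnt while their description names anti-GFP, and the description was followed. There was 1 group of 3 biological replicates, all of this strain, and no untagged or mutant group is analysed here. Whole embryos mix all tissues and stages, so a weak peak in all cells and a strong peak in few cells cannot be told apart.

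The respiratory chain of the inner mitochondrial membrane passes electrons from NADH (complex I) and succinate (complex II) through complex III to complex IV, which reduces oxygen, and complex V (ATP synthase) uses the proton gradient that the chain builds. Most subunits are encoded in the nucleus and are made in nearly all tissues, while flies also carry duplicated copies, many of them expressed mainly in the testis. Pointed is an ETS-domain activator downstream of receptor tyrosine kinases. In mammals another ETS factor, GABP (NRF-2), is a known activator of respiratory genes, and its fly relative is Ets97D.

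A gene was called bound when a peak summit of the optimal list, which holds 3646 peaks on dm6, lay within 500 bp of one of its own annotated transcription start sites (TSSs). Of the 88 genes 14 were called (15.9%, 95% interval 8.98 to 25.2), against 15.8% of all protein-coding genes. The count was therefore near the background, and the family as a whole did not stand out. All 14 were standard subunits, namely 7 of complex I, 5 of complex IV and 2 of complex V. No gene of complex II or III and no L-suffixed paralogue was among them. The 14 were 22.2% of the 63 standard subunits (95% interval 12.7 to 34.5), an interval that includes the 15.8% of all genes. The exact 95% intervals of the complexes over all their members overlapped and each included 15.8%, running to 36.9% for 0 of 8 in complex II and to 33.6% for 0 of 9 in complex III (limits by 3 counts 37.5% and 33.3%). No test was made of these differences, since the members were grouped with results of these data known. The depth of the libraries is unknown, so a gene that was not called is one without a listed peak.

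The promoter sequences below are those of the called genes that hold motif 1, the site of the promoter factor M1BP, or the element described in nuclear respiratory genes of flies, leaving out 1 gene for its chromosome arm. The last is the paralogue COX5BL, which was not called, shown beside COX5B. Each runs 5′ to 3′ on the strand of its gene, from 250 bases before the most upstream TSS, and the TSS is the base after those 250 of 300. Capitals mark a match to motif 1 or to the respiratory element on either strand. The optimal summit lies outside the printed bases for COX5A, COX5B and ND-42. It lies inside them for ND-SGDH (base 74) and COX7B (base 106). The sequence is the Release 6 reference from RefSeq with TSSs from Ensembl release 115, in dm6 coordinates.

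COX5A, 3R:11819109-11819408, plus strand: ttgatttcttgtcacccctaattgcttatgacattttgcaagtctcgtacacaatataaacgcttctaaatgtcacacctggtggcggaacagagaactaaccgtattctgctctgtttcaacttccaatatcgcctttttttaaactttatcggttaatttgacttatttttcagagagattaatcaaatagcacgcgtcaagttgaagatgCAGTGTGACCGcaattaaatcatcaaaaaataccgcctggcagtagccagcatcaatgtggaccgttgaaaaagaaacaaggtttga
COX5B, 2L:6557550-6557849, plus strand: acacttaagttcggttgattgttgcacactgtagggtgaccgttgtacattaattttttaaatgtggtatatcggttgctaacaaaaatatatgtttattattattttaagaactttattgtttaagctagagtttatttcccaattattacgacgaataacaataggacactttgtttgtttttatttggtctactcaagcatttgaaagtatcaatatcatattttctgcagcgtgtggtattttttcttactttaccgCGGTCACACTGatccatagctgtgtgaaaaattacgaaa
COX7B, 3L:17425227-17425526, plus strand: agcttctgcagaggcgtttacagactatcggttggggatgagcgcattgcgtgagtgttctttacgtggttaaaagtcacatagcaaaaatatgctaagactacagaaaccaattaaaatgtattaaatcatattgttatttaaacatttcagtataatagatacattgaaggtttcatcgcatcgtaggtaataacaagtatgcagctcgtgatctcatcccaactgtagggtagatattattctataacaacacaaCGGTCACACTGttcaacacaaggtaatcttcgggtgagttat
ND-42, 3R:22027459-22027758, plus strand: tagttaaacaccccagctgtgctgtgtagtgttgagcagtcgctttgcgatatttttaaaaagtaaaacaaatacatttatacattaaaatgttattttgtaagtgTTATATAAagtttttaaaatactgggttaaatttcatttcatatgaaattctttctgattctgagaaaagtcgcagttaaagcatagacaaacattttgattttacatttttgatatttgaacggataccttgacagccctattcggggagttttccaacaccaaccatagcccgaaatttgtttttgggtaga
ND-SGDH, 3L:12138535-12138834, minus strand: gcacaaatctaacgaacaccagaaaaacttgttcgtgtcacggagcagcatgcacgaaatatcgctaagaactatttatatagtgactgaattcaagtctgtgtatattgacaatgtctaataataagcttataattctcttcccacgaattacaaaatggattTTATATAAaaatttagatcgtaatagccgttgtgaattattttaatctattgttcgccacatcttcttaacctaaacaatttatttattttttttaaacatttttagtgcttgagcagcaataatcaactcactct
COX5BL, 2L:6559181-6559480, plus strand: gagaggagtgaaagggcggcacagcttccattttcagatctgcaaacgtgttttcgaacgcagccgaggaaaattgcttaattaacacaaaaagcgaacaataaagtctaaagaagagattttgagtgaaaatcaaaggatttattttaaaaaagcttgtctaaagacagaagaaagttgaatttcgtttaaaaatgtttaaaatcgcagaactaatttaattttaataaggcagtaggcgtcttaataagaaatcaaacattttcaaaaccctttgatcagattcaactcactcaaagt

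In COX5B and COX7B motif 1 begins 11 and 8 bases after the TSS base, on the strand of the gene. In COX5A it lies on the other strand, and its first printed base is at -37 from the TSS. The respiratory element has the same letters, TTATATAA, in both ND-42 and ND-SGDH, starting at -144 and -86 from the TSS. COX5BL holds neither.

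Complex I, the NADH dehydrogenase, held the 4 highest-ranked of the 14 promoter peaks and also the lowest, with 7 of its 34 standard subunits called (20.6%, 95% interval 8.7 to 37.9). ND-MWFE encodes an accessory subunit. Its peak (2R:13158360-13158634) had a signal of 553 in the authors' units and ranked 165 in the optimal list. It ranked 106, 146 and 431 in the relaxed lists of replicates 1, 2 and 3, with signals of 236, 211 and 113. Replicate 3 thus placed it lower than the others. The summit lay 176 bp upstream of the TSS of ND-MWFE but 45 bp from that of TppII, a tripeptidyl peptidase gene on the opposite strand, and inside an intron of TppII.

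ND-ASHI, another accessory subunit gene, came next in the family (X:6679279-6679472, signal 342, rank 448). Its ranks in replicates 1, 2 and 3 were 746, 419 and 426, with signals of 94.0, 125 and 114, so that replicate 1 was the lowest. The summit lay 249 bp upstream of its TSS and 273 bp from that of Fum1, a fumarase gene, in an intron of Fum1. The peak of ND-51, the flavoprotein subunit where NADH is oxidised, was at 2L:6062699-6063082 (signal 332, rank 473). It ranked 299, 643 and 954 in replicates 1, 2 and 3, with signals of 151, 98.5 and 77.4. Its summit fell between genes, 134 bp upstream of ND-51 and 98 bp from the TSS of CG13994.

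ND-24 encodes the other flavoprotein-module subunit, and its summit fell in its own noncoding exon, 64 bp downstream of the TSS (X:17631961-17632344, signal 286, rank 625). Its ranks were 427, 1138 and 766 in replicates 1, 2 and 3, with signals of 126, 69.2 and 87.3. The TSS of corolla, a synaptonemal complex gene, was 106 bp from that summit. The accessory subunit gene ND-42 (3R:22027212-22027595, signal 194, rank 1261) shares its peak with Cchl, which encodes cytochrome c heme lyase. The summit was in a noncoding exon of Cchl, 76 bp from its TSS and 305 bp upstream of that of ND-42. It ranked 1342, 2334 and 1058 in the replicates, with signals of 68.0, 41.8 and 73.4.

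ND-SGDH and ND-20 were the weakest called genes of complex I. The summit of ND-SGDH (3L:12138569-12138952, signal 156, rank 1782) lay between genes, 177 bp upstream of its TSS and 107 bp from that of RhoGAP68F. It ranked 1372, 1583 and 3904 in the replicates, with signals of 67.2, 55.6 and 36.2, and the last of these ranks is outside the strongest 3646 peaks. A second optimal summit (rank 1695, signal 162) stood 923 bp upstream of the same gene. ND-20 encodes a core subunit of the iron-sulfur path. Its peak (X:15986771-15987154, signal 103, rank 3143) ranked 3927 and 3085 in replicates 1 and 3, with signals of 30.8 and 41.2, and nothing overlapped it in the list of replicate 2. It was the weakest of the 14. Its summit, 155 bp upstream, was the only one with no TSS of another protein-coding gene within 500 bp.

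Complex IV, cytochrome c oxidase, had the largest share of its standard subunits called, with 5 of 8 (62.5%, 95% interval 24.5 to 91.5), against 15.8% of all genes. That interval excludes 15.8%, while the one over all complex IV members (5 of 16, 11 to 58.7) includes it. The subunits were split off with results of these data known, and the difference was not tested. The symbol rule also misses the subunit genes levy, which was called, and cype, which was not. COX5A was strongest (3R:11819333-11819716, signal 230, rank 967). It ranked 771, 1622 and 980 in replicates 1, 2 and 3, with signals of 92.6, 54.6 and 76.0. Replicate 2 placed it lowest. Its summit lay 74 bp upstream of an own TSS, within an intron used by transcripts that start further upstream, and 105 bp from the TSS of glo, an RNA-binding protein gene.

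The peak of COX8 (3L:21539300-21539683, signal 178, rank 1497) ranked 1019, 2707 and 2005 in the replicates, with signals of 79.8, 36.9 and 52.4. Its summit lay 45 bp upstream of COX8 and 370 bp from VhaM9.7-b, a vacuolar proton pump gene. The peak at COX5B (2L:6557346-6557729, signal 167, rank 1627) ranked 2493, 1534 and 1189, with signals of 43.6, 57.0 and 68.8, and here replicate 1 was the lowest. Its summit was 36 bp from the TSS of IFT52, an intraflagellar transport gene, and 262 bp upstream of COX5B.

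COX6B and COX7B were called on weaker peaks. That of COX6B (X:19744180-19744563, signal 125, rank 2444) ranked 2238, 7384 and 1738, with signals of 47.8, 21.5 and 56.4, so that replicate 2 held it far outside its strongest 3646 peaks. Its summit was 37 bp from the TSSs of both COX6B and CG18809. That of COX7B (3L:17425140-17425523, signal 119, rank 2626) ranked 2230 and 2574 in replicates 1 and 2, with signals of 47.9 and 38.6, and no peak of replicate 3 overlapped it. Its summit was 145 bp upstream of COX7B and 115 bp from Sec3, an exocyst gene. COX4, COX7A and COX7C were the standard subunits of complex IV among the members without a call.

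Of the 11 standard subunits of complex V, 2 were called (18.2%, 95% interval 2.28 to 51.8), near the 15.8% of all genes. ATPsynE encodes a subunit of the membrane sector. Its peak (3R:14326776-14327159, signal 237, rank 906) ranked 593, 1859 and 1261, with signals of 105, 49.6 and 66.6, and its summit was in its own noncoding exon, 21 bp downstream of the TSS. A further optimal summit lay 882 bp downstream, nearest to spn-B (rank 2767, signal 114). ATPsynbeta encodes the catalytic subunit and is on chromosome 4. Its peak (4:1030868-1031251, signal 160, rank 1731) ranked 2072, 1299 and 3563 in the replicates, with signals of 50.2, 63.5 and 38.2. The summit lay 424 bp upstream of ATPsynbeta, the farthest of the 14, and 85 bp from the TSS of CG11076, in an intron of that gene. In replicate 3 the summit within 500 bp of the ATPsynbeta TSS ranked only 25758, as the summit of its overlapping peak lay outside the window.

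**Figure D1:**
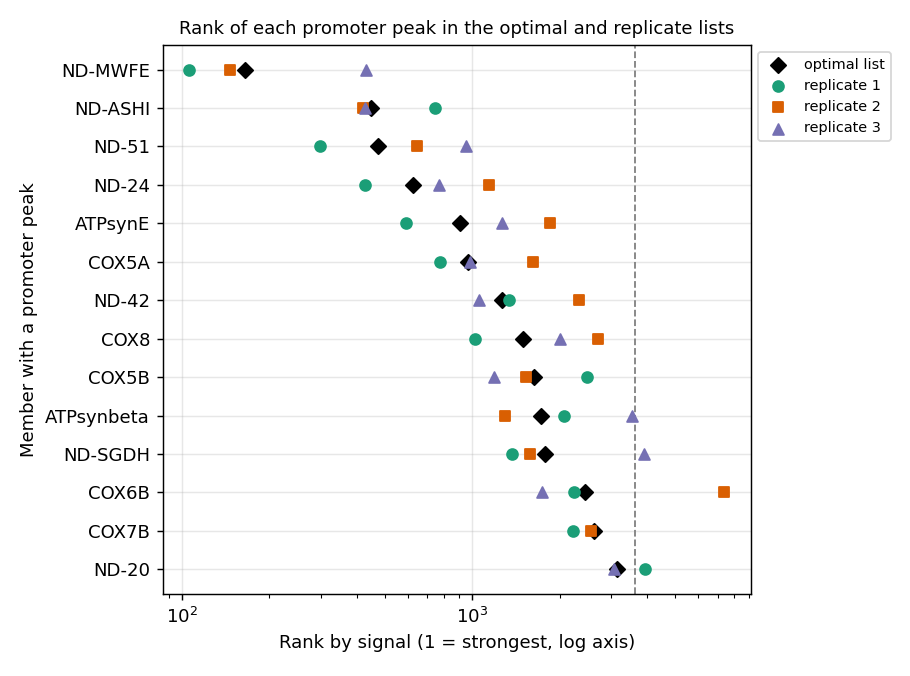
Rank of the 14 promoter peaks (log axis, 1 is strongest) in the optimal list and in each replicate's relaxed list, by overlap of at least 1 bp. The dashed line is at 3646, and ND-20 has no point for replicate 2 nor COX7B for replicate 3.

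The signals of these 14 peaks ran from 103 to 553, with a median of 186, beside a median of 154 in the optimal list, whose signals ran from 93.2 to 2989. In 11 of the 14 the peak was in the stronger part of the list, up to rank 1823. Of all protein-coding genes 9.17% were called in that part, beside 15.8% in the whole list. In 12 of the 14 the summit was upstream of the own TSS, and the median distance of the 14 was 150 bp on either side. These are descriptions of peaks that the call selected, and the upstream share was not computed for all called genes.

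**Figure D2:**
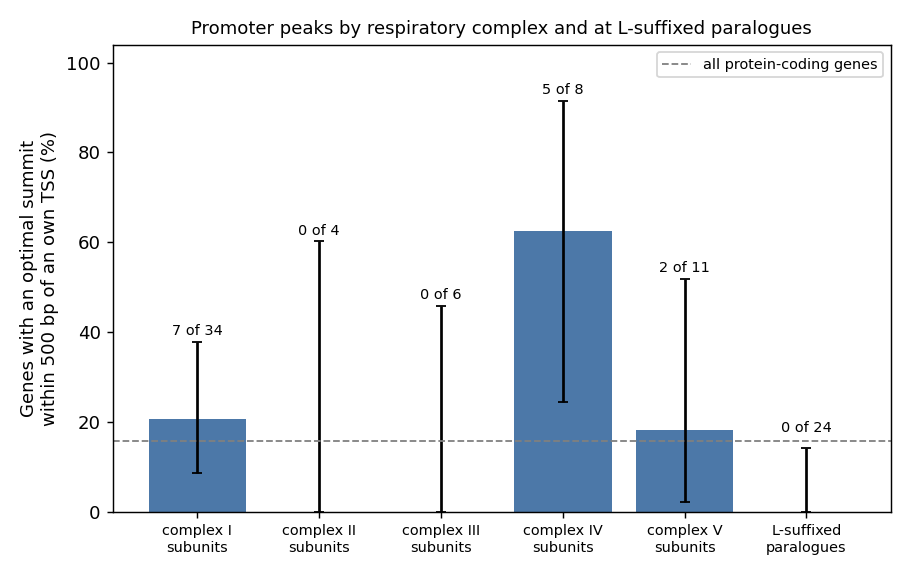
Share of genes with an optimal summit within 500 bp of an own TSS (percent), for the standard subunits of each complex and for all 24 L-suffixed paralogues, with exact 95% intervals that cover counting error only and the counts above them. The dashed line is the 15.8% of all protein-coding genes, and complex IV has the highest bar with 5 of 8.

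Most called respiratory genes shared their peak with a neighbour. In 13 of the 14 a TSS of another protein-coding gene was also within 500 bp of the summit. The same share was not computed for all called genes. Of the 2197 called protein-coding genes 1428 had a divergent promoter as defined below, so sharing is not taken as particular to this family. In 7 the neighbour's TSS was the nearer one (ND-MWFE, ND-51, ND-42, COX5B, ATPsynbeta, ND-SGDH and COX7B), and in the other 7 the own TSS was nearest, with COX6B tied. Given to the nearest TSS only, 7 respiratory genes were thus called, or 7.95%, against 11.5% of all protein-coding genes. ChIP-seq at such promoters does not say which of the genes a peak serves.

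The family is rich in divergent promoters, meaning here that a gene on the opposite strand starts within 1000 bp upstream. Among the 88 genes 44 had one (50%), against 36.2% of all protein-coding genes. Of these 44, 13 were called (29.5%), and 28.3% of all genes with a divergent promoter were. Of the 44 without, 1 was called (2.27%, 95% interval 0.0575 to 12.0), namely ND-20, beside 8.65% of all such genes. Among the 63 standard subunits 40 had a divergent promoter and 13 of these were called. Among the 24 L-suffixed paralogues 4 had one and none was called. This split was chosen after the data were seen, and its part in the difference between subunits and paralogues was not tested.

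**Figure D3:**
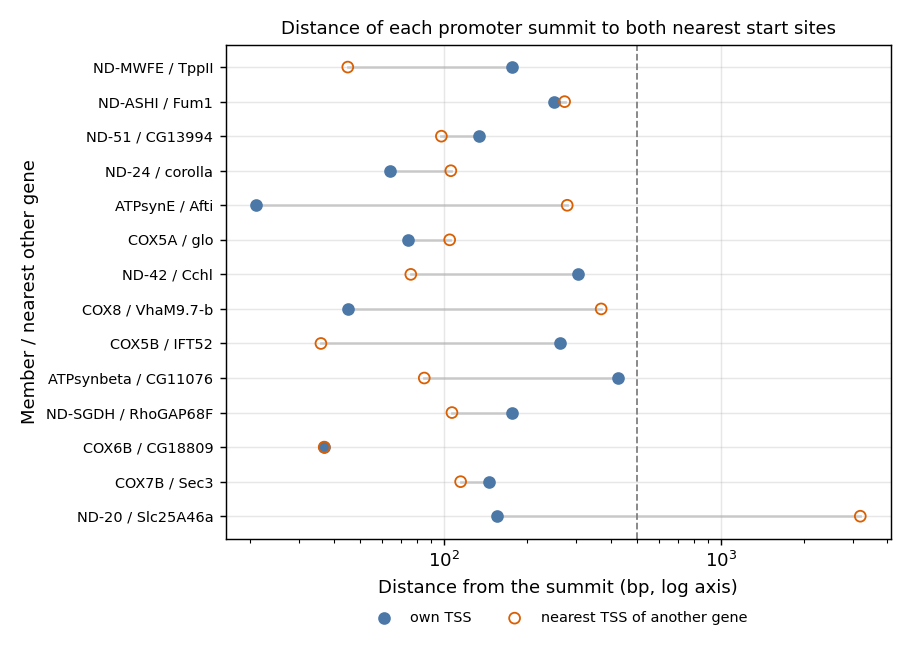
Distance in bp (log axis) from each of the 14 summits to the member's own TSS (filled) and to the nearest TSS of another protein-coding gene (open), with the other gene named. The dashed line is at 500 bp, and the open symbol lies beyond it only for ND-20, at 3191 bp.

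With the wider call, a summit in the gene's span or within 2 kb, 23 of 88 genes were bound (26.1%, 95% interval 17.3 to 36.6), against 29.4% of all protein-coding genes. That interval includes 29.4%. The members are short, with a median span of 1097 bp against 2166 bp, and the part of span length in these shares was not tested. The 9 genes added were SdhA, SdhB, SdhC, SdhD, COX7AL2, COX5BL, ND-B22, COX7C and ATPsyndelta. At 5 of the 9 a TSS of another protein-coding gene was within 500 bp of the summit. The own TSS was the nearest only for COX7AL2 and COX7C.

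All 4 standard subunits of complex II, succinate dehydrogenase, were called by the wider rule and none by the promoter rule. This complex also acts in the citric acid cycle. The exact interval of 4 of 4 (39.8% to 100%) excludes the 29.4% of all genes called by the wider rule. That over all complex II members (4 of 8, 50%, 15.7 to 84.3) includes it. The subunits were split off with results of these data known, and the difference was not tested. SdhD, a membrane anchor subunit gene, had the strongest peak near any member (3R:23758089-23758388, signal 756, rank 78). It ranked 67, 71 and 125 in replicates 1, 2 and 3, with signals of 296, 276 and 189. That summit was 2369 bp downstream of the SdhD TSS, in an intron of Hrd3, and 108 bp from the TSS of PTPMT1, a mitochondrial phosphatase gene. SdhB, the iron-sulfur subunit, was called on a summit 2214 bp downstream, 74 bp from CG15237 (2R:6809648-6810031, signal 188, rank 1335). SdhC, the other anchor, was called on one 1939 bp upstream, in a noncoding exon of Tctp (3R:11211596-11211979, signal 186, rank 1359). For SdhA, the flavoprotein subunit, the summit was 850 bp upstream and 49 bp from cer (2R:19396629-19397012, signal 127, rank 2394). SdhA was thus the nearest gene outside the 500 bp window without a summit inside it, while ATPsynbeta with 424 bp was the last inside. Sdhaf3, an assembly factor gene of complex II and the only one among the members, had a promoter summit only in replicate 3 (rank 16826).

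Complex III, the cytochrome bc1 complex, had no call by either rule among its 6 standard subunits with a UQCR symbol (exact 95% interval 0 to 45.9, limit by 3 counts 50%). Of its genes with other symbols, the wider rule called RFeSP, the Rieske iron-sulfur protein (rank 438), Cyt-c1L (rank 1321) and ox (rank 3434). It did not call Cyt-c1, and of all protein-coding genes it called 29.4%. The promoter rule called none of these, Cyt-c1 included. UQCR-C2, a core subunit gene, had a promoter summit in replicate 3 (rank 3310) and in the pooled list (16366), and its partner UQCR-C1 had one only in replicate 3 (17753). UQCR-Q ranked 21977 and 9453 in replicates 1 and 3, and UQCR-14 ranked 28859 and 5764. UQCR-11 had none in any list, and UQCR-6.4 was listed only in the pooled relaxed list (12771). None of these 6 thus had a promoter summit in the list of replicate 2, against 33.3% of all genes. The exact 95% interval of 0 of 6 reaches 45.9% and includes that share.

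In complex I the core subunit genes ND-75, ND-23 and ND-30 had pooled ranks of 10559, 9734 and 14519, and ND-49, also a core subunit, had none. ND-75, the largest subunit, ranked 8642 in replicate 3 and was not listed at the promoter in the other replicates. ND-B16.6 and ND-B14.5B were the other subunits of complex I with no promoter summit in any list. In complex V, ATPsyngamma, the rotor subunit gene, ranked 9318 and 12714 in replicates 1 and 3 and had none in replicate 2. ATPsynO and ATPsynB, of the stalk that joins both sectors, were listed only in replicate 3 (18389 and 12060). ATPsynCF6 was listed in replicate 1 (4105) and in the pooled list (11187), and ATPsyndelta, called by the wider rule, had no promoter summit in any list.

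The paralogues were defined as members whose symbol is that of another member followed by L and an optional digit, and 20 met this. None was called by the promoter rule, beside 15.8% of all protein-coding genes. The exact 95% interval of 0 of 20 reaches 16.8% and so includes that share, and the limit by 3 counts is 15%. The symbols COX6AL, COX6AL2, COX6CL and ATPsynepsilonL follow the same pattern but are named after genes with other symbols (levy, cype and sun), and none of these 4 was called either. For 0 of 24 the exact interval reaches 14.2%, and the limit by 3 counts is 12.5%. The 20 were named after 18 members, of which 5 were called: ND-20, ND-24, ND-51, COX5B and ATPsynbeta. Testis expression was not measured here, and embryos of this age have only the precursors of the testis.

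For complex I, ND-24L had a summit within 500 bp of its TSS only in replicate 2 (rank 10476), while ND-24 ranked 427, 1138 and 766. ND-51L1 and ND-51L2 had no such summit in any list, against ranks of 299, 643 and 954 for ND-51. ND-20L ranked 24950, 12650 and 22929 in replicates 1, 2 and 3. Neither ND-49L nor its counterpart ND-49, on chromosome 4, had a summit in any list. ND-B14.5AL ranked 18813 and 11754 in replicates 1 and 2, and ND-B14.5A had one only in replicate 3, at 16806.

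SdhAL, SdhCL, UQCR-11L and UQCR-14L had no promoter summit in any of the lists, and SdhBL ranked 26410 and 29872 in replicates 1 and 3. UQCR-6.4L ranked 5901, 4559 and 19528, while UQCR-6.4 had no promoter summit in the 3 replicate lists. In complex IV, COX4L had one only in replicate 2 (18226), COX7CL only in replicate 3 (19762) and COX7AL in replicates 1 and 3 (20057 and 8118). COX6AL2 had one only in replicate 2 (24647) and COX6CL had none, while COX6AL ranked 21498, 7303 and 12897.

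COX5BL lies directly downstream of COX5B. It ranked 6892, 21518 and 11206 at its own TSS, and by the wider rule it was called on the peak of COX5B, 1893 bp upstream. COX7AL2 was called by the wider rule on an optimal peak (2L:2199262-2199418, signal 325, rank 495). The nearest TSS of another protein-coding gene was 6801 bp from that summit. The peak ranked 518, 346 and 922 in the replicates, with signals of 114, 137 and 78.5. It lay between genes, 1453 bp upstream of the nearest COX7AL2 TSS, and which gene it serves is not known. Within 500 bp of a COX7AL2 TSS there was a summit only in replicate 3, at 5843. In complex V, ATPsynbetaL ranked 10279 and 24559 in replicates 1 and 3, ATPsynCF6L 26215 in replicate 2 and ATPsynepsilonL 24581 in replicate 3, while ATPsynGL had no promoter summit.

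The replicates were compared by their top lists, the 3646 peaks of highest signal in each. Top lists of replicates 1, 2 and 3 called 14, 12 and 16 members (15.9%, 13.6% and 18.2%), against 16.1%, 12.8% and 17.4% of all protein-coding genes. The mean was 15.9% ± 2.27 (SD, n = 3), and that of all genes was 15.4% ± 2.38 (SD, n = 3). In each list the family's share followed that of all genes, with a difference smaller than the spread between replicates. The optimal list draws on the same libraries and is not independent of these lists.

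In all 3 top lists 9 members were called (10.2%), against 9.5% of all genes. They were ND-MWFE, ND-ASHI, ND-51, ND-24, ND-42, COX5A, COX5B, COX8 and ATPsynE, all of which the optimal list calls. ND-SGDH, COX7B, ATPsynbeta and COX6B were called in 2 lists. In 1 list were ND-20, ND-PDSW, ND-B8, ATPsynG, UQCR-C2 and COX7C (replicate 3) and ATPsynC (replicate 1), and 68 members were in none. Of these 7, ND-20 alone is called by the optimal list. ATPsynG, ND-B8 and UQCR-C2 reached 2744, 2703 and 3310 in replicate 3 with no promoter summit in the relaxed lists of the other replicates. No L-suffixed paralogue was called in any top list.

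The relaxed lists hold weak peaks and background regions along with strong peaks. In that of replicate 1, 46 members had a summit within 500 bp of an own TSS (52.3%), against 45.1% of all genes. In that of replicate 2 there were 28 (31.8%), against 33.3%, and in that of replicate 3 there were 62 (70.5%), against 54.6%. Among the standard subunits the counts were 38, 19 and 51 of 63 in replicates 1, 2 and 3 (60.3%, 30.2% and 81%). For the 24 L-suffixed paralogues the counts were 8, 9 and 10 (33.3%, 37.5% and 41.7%). Replicate 3 had the largest share of subunits and replicate 2 the smallest. In replicate 2 the share was higher for the paralogues (exact interval 18.8 to 59.4) than for the subunits (19.2 to 43). These intervals overlapped and both included the 33.3% of all genes, and the difference was not tested. The depth behind each list is not known here, and its part in these shares was not tested.

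**Figure D4:**
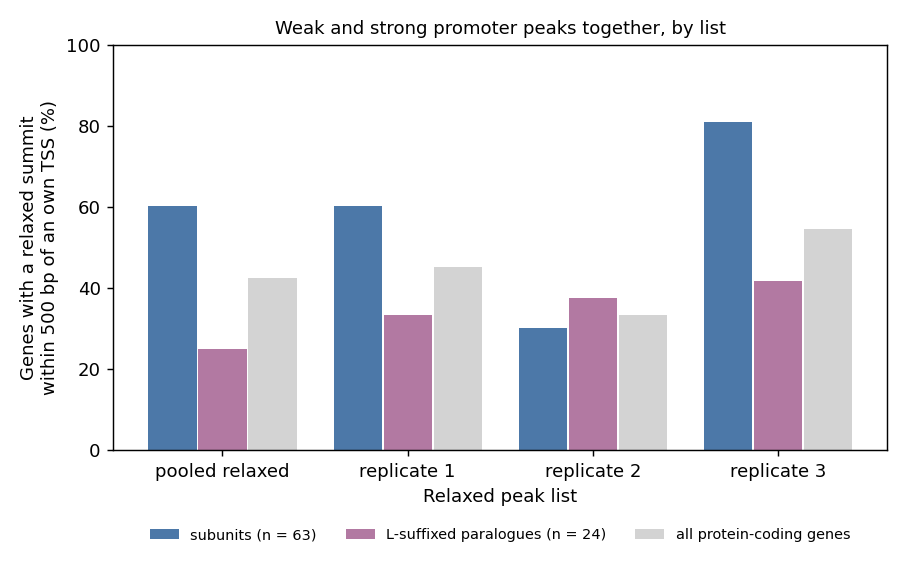
Share of genes (percent) with a summit within 500 bp of an own TSS in the pooled relaxed list and in each replicate's relaxed list, for 63 standard subunits, 24 L-suffixed paralogues and all protein-coding genes. The subunits are at 81.0% in replicate 3 and 30.2% in replicate 2, while the paralogues stay between 25.0% and 41.7%.

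In the pooled relaxed list 44 members had a promoter summit (50%), against 42.5% of all genes. The 30 below the optimal list began with ND-B17 (rank 4146, signal 83.9), a complex I accessory subunit, just outside a list whose weakest called member was ND-20 with 103. ATPsynC, which encodes the c-ring subunit, followed at 4435 (79.7), then ND-B22 at 5015 (72.5), COX7C at 5296 (69.5) and SdhC at 6204 (62.6). ND-B17 ranked 4460, 3679 and 5179 in the replicates, so that it was near the top list in each. ND-B22, COX7C and SdhC also had an optimal peak within 2 kb.

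Genes of the pathway that the symbol rule misses were taken from a list of 31 symbols. Of these, 27 matched a gene that is not a member, and 5 of the 27 were called at the promoter, against the same 15.8% of all genes. By the wider rule 9 of the 27 were called, against 29.4% of all genes. CIA30, a complex I assembly factor gene, had a far stronger peak than any member's promoter (3R:29736678-29737025, signal 1028, rank 40). It ranked 43, 34 and 45 in the replicates and lay 96 bp from its own TSS, which was the nearest. Cyt-c-d, one of the cytochrome c genes, which is known for its role in sperm, was called (signal 430, rank 286, ranks 370, 230 and 281), with the summit 389 bp from its TSS and 155 bp from that of CG31808. The widely expressed Cyt-c-p was not called at the promoter. It was called by the wider rule (rank 716) and had a promoter summit in the pooled list (4404).

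The ATP synthase alpha subunit gene blw was called (signal 424, rank 294, ranks 221, 401 and 418), 121 bp from its own TSS. So were the complex III assembly gene Ttc19 (signal 270, rank 705, ranks 599, 2235 and 458) and levy, the complex IV subunit 6A gene (signal 222, rank 1017, ranks 834, 1053 and 1292). The summit at levy was nearer to wmd, at 64 bp, than to levy, at 187 bp. Of the subunits 2 of 9 were called, of the carriers 1 of 4, of the assembly genes 2 of 5 and of the regulators 0 of 9. Among those regulators were Ets97D, ewg (the fly relative of NRF-1) and srl (that of PGC-1), none of which had a promoter summit in the optimal or pooled list.

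Other housekeeping families are given side by side, with no test. By the promoter rule 19 of 73 mitochondrial ribosomal protein genes were called (26%, 95% interval 16.5 to 37.6), 40 of 93 cytoplasmic ribosomal protein genes (43.0%, 32.8 to 53.7) and 7 of 48 proteasome genes (14.6%, 6.07 to 27.8). The respiratory family, with 15.9%, was near the proteasome genes. In the relaxed list of replicate 3 the shares were 70.5% for the respiratory genes, 83.6% for the mitochondrial ribosomal proteins, 89.2% for the cytoplasmic ribosomal proteins and 64.6% for the proteasome, against 54.6% of all genes. In that of replicate 2 they were 31.8%, 43.8%, 38.7% and 29.2% in the same order, against 33.3% of all genes. Only the ribosomal families thus changed places, and their 95% intervals in replicate 2 overlapped (32.2 to 55.9 and 28.8 to 49.4). In that of replicate 1 the shares were 52.3%, 68.5%, 78.5% and 50%, against 45.1%, and the families ranked as in replicate 3.

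The promoter windows of 300 bases were searched on both strands for patterns of known factors. Motif 1 was in 13 of 88 member windows (14.8%), against 4.5% of all promoters. It was in 4 of the 14 called genes, the 3 shown above and ND-MWFE, in 9 of the 49 other standard subunits and in 0 of the 24 L-suffixed paralogues. Among all genes called at the promoter it was in 6.14%. TATCGATA, the DRE, which DREF binds, was in 9 members (10.2%), against 9.36% of all promoters, and all 9 were subunits without a call, among them COX4, COX7A, ND-15 and ND-23. Thus 0 of 14 called members held it, beside 13.9% of all called genes. In windows of 150 bp either side of the TSS, however, 2 of the 14 held it (14.3%), beside 11.7% of all called genes.

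The respiratory element, searched as TTACATAA, TTACGTAA, TTATATAA and TTATGTAA, was in 6 members (6.82%), against 5.18% of all promoters. These were the called ND-42 and ND-SGDH, with ND-30, ND-49, ND-MNLL and Sdhaf3. Within 150 bp either side of the TSS it was in 11 members (12.5%), against 3.93% of all promoters, so its share depended on the window. The ETS core CCGGAA was in 4 members (4.55%), against 6.78%, and in none of the 14 called, beside 6.37% of all called genes. The 4 were ND-B17, SdhA, UQCR-C1 and COX4L. The shorter GGAAG, which can overlap CCGGAA, was in 19 members (21.6%), against 27.8%. It was in 3 of the 14 (21.4%), beside 25.1% of all called genes. Of the 24 L-suffixed paralogues, none of them called, 10 held it (41.7%), and of the 49 other standard subunits 5 (10.2%). In windows of 150 bp either side of the TSS these were 8 (33.3%) and 6 (12.2%). GAGAG, in the repeats that GAGA factor binds, was in 20 members (22.7%), against 29.7%, and the E-box CAGCTG in 21 (23.9%), against 17.7%. Of the 24 paralogues 10 held GAGAG and 2 the E-box, and 5 and 2 in windows of 150 bp either side. Matches are descriptions of these letters in these windows, and not of binding.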

How the data were processed

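Peak lists on dm6 from ChIP-seq were used, namely an optimal list, a pooled relaxed list and 1 relaxed list for each of 3 replicates. Per the notes deposited with the files, replicates were called separately with a control, the pooled list used all 3 together, and the optimal list was derived by comparing lists. Which aligner, caller and threshold were used is not given in the sources used here. Fragments were 200 to 800 bp per the labels. The authors gave each peak a signal of unstated scale, by which peaks were ranked within a list, and −log10 of a q-value, which called no gene here. Signal values of different lists may differ in scale. In 12 of the 14 promoter peaks the summit was the midpoint of the peak.

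Summits (peak start plus the deposited offset) were set against TSSs of Ensembl release 115 in Python 3.11.15 with pandas 2.3.3, on 6 arms whose Release 6 sequence from RefSeq contains every peak used. No member is on Y. A replicate peak matched an optimal peak when at least 1 bp was shared. Intervals are exact Clopper-Pearson 95% intervals and limits on a count of 0 use 3 counts, and both cover counting error only and treat genes as independent. Enrichment was not tested. The calling code was tested on simulated data. The genes named are those called at the promoter, those just outside, all paralogues, the 5 strongest below the optimal list and the called genes of the other list, and the uncalled subunits named beside them were picked after their values were seen. In the other list 3 symbols had no match and 1 is a member. The members and lists were chosen with earlier results of these data known. The alternatives varied the window, the TSS, the peak list and its length, the assignment of summits and the member list. The lists on dm3 were not used here.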

Additional observations from a re-analysis of the deposited data

How the results depend on the processing

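The count of 14 respiratory genes with a promoter summit was 10, 15, 14, 11, 14 and 16 with a window of 200 bp, with 1000 bp, with the most upstream TSS only, in the stronger 1823 peaks, without the assembly factor and with the subunits the symbol rule misses. Of all genes, 11% were called with 200 bp, 18.3% with 1000 bp, 13.9% with the most upstream TSS only and 9.17% in the stronger 1823 peaks. The count of members was 9 with peak intervals over the TSS, 7 with summits given to the nearest TSS and 44 in the pooled relaxed list, against 9.67%, 11.5% and 42.5% of all genes. Split by promoter after seeing the data, it was 13 with and 1 without a divergent promoter. The wider count of 23 was 3 in the span alone, 35 with 5 kb and 73 in the pooled list, against 10%, 41.9% and 76.9% of all genes. In the stronger 1823 peaks it was 16, against 17.7% of all genes.

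By complex, the pooled list gave 21, 1, 3, 10 and 9 for complexes I to V, and 5 for the 20 paralogues. Complex II had 1 within 1000 bp, complex IV had 3 in the stronger 1823 peaks and complex V had 1 within 200 bp. The paralogues had 0 within 200 and 1000 bp, and 0 with the other 4 symbols added.

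With 1823 peaks the top lists of replicates 1 and 3 called 9 and 9 members (9.32% and 9.26% of all genes), with 2 times 3646 peaks 26 and 31 (24.3% and 28.3%), and the whole relaxed lists of replicates 1, 2 and 3 called 46, 28 and 62 (45.1%, 33.3% and 54.6%). Leaving out each replicate in turn, the members called in every top list left were 9 to 12 and the mean share 14.8% to 17.0%. Within 150 bp either side of the TSS the respiratory element was in 11 members, against 3.93% of all promoters. Of the alternatives, 37 kept their value within the replicate SD or 1.5 times the count, and 24 did not. The cause was not tested, except that longer lists and wider windows hold more summits by construction. No paired analysis was possible because there is 1 group. The read depth behind the lists is unknown.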
